A study of Mus musculus with 6 samples.

Results

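The core circadian clock genes examined here were Arntl, Clock, Npas2, Per1, Per2, Per3, Cry1, Cry2, Nr1d1 and Nr1d2, 10 of 16426 genes listed in the deposited liver tables, chosen by gene symbol. All 10 were listed in every library and passed the filter on low counts, which left 12230 genes for testing. Total RNA was sequenced from 6 snap-frozen livers of mice on a mixed B6:sv129 background aged 7 to 12 weeks. AAV8, a liver-tropic viral vector, had delivered a short hairpin RNA (shRNA) to each mouse, scrambled for 3 livers and directed for the other 3 against S1pr2, a receptor gene for the lipid sphingosine-1-phosphate. The series text describes male mice, all given dexamethasone, a synthetic glucocorticoid, at about 0.84 mg/kg for 7 days in drinking water, so both groups shared that treatment. The libraries carry no label for dexamethasone, and the sources used here give neither the promoter driving the shRNA nor the hour of liver collection nor the light schedule. The labels do not say that replicates were separate animals, so p-values measure the spread between these libraries.

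In the mammalian clock, BMAL1 (the product of Arntl) pairs with CLOCK or its close relative NPAS2 and binds E-box elements to switch on the Per, Cry and REV-ERB genes. PER and CRY proteins return to block that activation, while the REV-ERB proteins (from Nr1d1 and Nr1d2) repress Arntl and its partners through ROR elements (ROREs), so that Arntl RNA peaks opposite to REV-ERB-driven repression. In liver the loop is also set by feeding and by glucocorticoids, and Per1 is a direct target of the glucocorticoid receptor.

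The libraries held 16558775 to 17410160 expected counts, and no pair of libraries was a copy. S1pr2 was 4.41, 5.23 and 6.66 CPM (counts scaled to the TMM-adjusted library size) in the scramble livers and 3.04, 2.21 and 2.23 CPM in the S1pr2 shRNA livers, each in the order 1 to 3, a fall of the targeted gene without overlap (log2 fold change -1.12, SE 0.24, edgeR adjusted p = 0.0301). That call held in 9 of 18 alternative fits, with an adjusted p of up to 0.117, and was lost with the replicate block, on the FPKM scales and without scramble liver 2 or 3 or S1pr2 shRNA liver 2 or 3. Hepatocyte markers summed to 141900 to 175100 CPM in the scramble livers and 95360 to 138800 CPM in the S1pr2 shRNA livers, with 9 of 10 markers listed. Endothelial markers summed to 250.3 to 286.0 and 334.5 to 359.6 CPM, with 5 of 10 past the test and higher, against 3.02% of all genes. No hepatocyte, macrophage, stellate cell or cholangiocyte marker passed, and the lymphocyte markers were too low to test. Macrophage sums were 129.2 to 242.5 and 175.0 to 353.8 CPM, stellate cell sums 206.6 to 355.1 and 324.7 to 362.3 CPM, cholangiocyte sums 27.7 to 54.7 and 45.3 to 105.2 CPM, and lymphocyte sums 0.303 to 0.624 and 0.817 to 1.78 CPM, with Cd3e, Cd79a, Ms4a1 and Nkg7 among those at 0 in some libraries. S1pr2 shRNA liver 1 stood apart, with the lowest hepatocyte sum, the highest macrophage and cholangiocyte sums, and the largest normalization factor (1.154, against 0.924 to 1.027 in the other libraries). The part of these cell markers in the clock gene values was not tested.

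Promoter windows, from 250 bases before to 50 bases after the annotated start, were found in RefSeq (GRCm38.p6) for 9 of the 10 genes, 13 windows in all. The tables were built on mm9, so windows were matched by gene and not by position. Both strands were searched for the E-box CACGTG, the E-prime box CACGTT, the RORE core TAGGTCA, the D-box (TTATGTAA, TTATGCAA or TTACGTAA, the element bound by the DBP, TEF and HLF factors) and the cAMP response element TGACGTCA, each counted separately. Of 32544 mouse windows of the same length, 7.17% held the E-box, 4.71% the E-prime box, 2.61% the RORE core, 1.78% a D-box and 1.8% the cAMP response element. The 4 windows below are shown because they carry these letters in the genes with the clearest or most variable values, with matches in capitals on the gene's own strand. The Arntl window lies at chr7:113207261-113207560 (+), Nr1d1 at chr11:98775328-98775627 (-), Per1 at chr11:69098699-69098998 (+) and Per3 at chr4:151044616-151044915 (-).
Arntl: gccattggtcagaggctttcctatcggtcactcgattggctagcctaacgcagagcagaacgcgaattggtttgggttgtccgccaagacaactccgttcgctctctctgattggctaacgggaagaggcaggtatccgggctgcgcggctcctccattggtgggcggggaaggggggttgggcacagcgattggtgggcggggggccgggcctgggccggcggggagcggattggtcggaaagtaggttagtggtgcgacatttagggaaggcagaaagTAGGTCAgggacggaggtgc
Nr1d1: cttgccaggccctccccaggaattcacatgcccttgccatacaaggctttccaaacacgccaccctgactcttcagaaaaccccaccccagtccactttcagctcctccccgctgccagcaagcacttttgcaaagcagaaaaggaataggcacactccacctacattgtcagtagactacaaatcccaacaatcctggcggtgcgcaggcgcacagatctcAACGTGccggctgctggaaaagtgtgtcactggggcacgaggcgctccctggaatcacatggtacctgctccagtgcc
Per1: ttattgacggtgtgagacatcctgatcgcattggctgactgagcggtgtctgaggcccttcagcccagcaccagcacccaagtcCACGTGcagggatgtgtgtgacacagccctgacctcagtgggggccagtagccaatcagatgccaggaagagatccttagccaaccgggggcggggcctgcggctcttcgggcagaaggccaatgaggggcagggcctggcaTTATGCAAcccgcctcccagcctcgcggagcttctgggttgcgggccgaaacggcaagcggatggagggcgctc
Per3: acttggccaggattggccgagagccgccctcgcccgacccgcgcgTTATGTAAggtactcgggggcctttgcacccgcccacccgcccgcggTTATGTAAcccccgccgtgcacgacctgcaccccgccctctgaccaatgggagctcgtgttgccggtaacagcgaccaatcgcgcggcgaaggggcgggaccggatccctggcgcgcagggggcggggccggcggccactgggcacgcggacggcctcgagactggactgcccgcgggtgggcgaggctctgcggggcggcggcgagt

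Arntl carried the RORE core, the element read by the REV-ERB proteins, starting 30 bases after the start. Nr1d1 carried an E-prime box at -28, Per1 an E-box at -166 and a D-box at -24, and Per3 a pair of D-boxes at -205 and -158. Among the windows not shown, Cry1 held an E-box at -60 and an E-prime box at -79, and Cry2 an E-prime box at -166. The other window of Arntl, the other window of Per1 and all those of Clock, Npas2 and Nr1d2 held no match. Per2 had no window. The cAMP response element was in 0 of the 13 windows, and these letter matches are a description of the sequence only.

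Taken by role, the activator genes Arntl and Npas2 had higher values in the S1pr2 shRNA livers, the Per and Cry genes had lower values, and the REV-ERB pair split. Clock, the other activator gene, was near 0 (log2 fold change -0.10). The groups overlapped in CPM for Clock, Per1, Nr1d1 and Nr1d2. Of the 10 genes, 0 passed the edgeR quasi-likelihood test after adjustment, where 7.66% of all 12230 genes passed (3.02% higher and 4.64% lower). At an unadjusted p under 0.05 there were 6 (Arntl, Npas2, Per2, Per3, Cry1 and Nr1d1), against 24.5% of all genes. DESeq2 called 1 of the 10, Per3, against 12.0% of all genes, and limma-voom called 0, against 6.98% of all genes. The groups did not overlap in CPM for 6 of the 10, 2 higher and 4 lower, against 31.9% of all genes (15.1% higher and 16.8% lower). The median log2 fold change of the 10 genes was -0.30, with 3 above 0 and 7 below, and that of all genes was 0.01. In bulk liver, fewer cells of a type and less RNA per cell cannot be told apart.

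**Figure D1:**
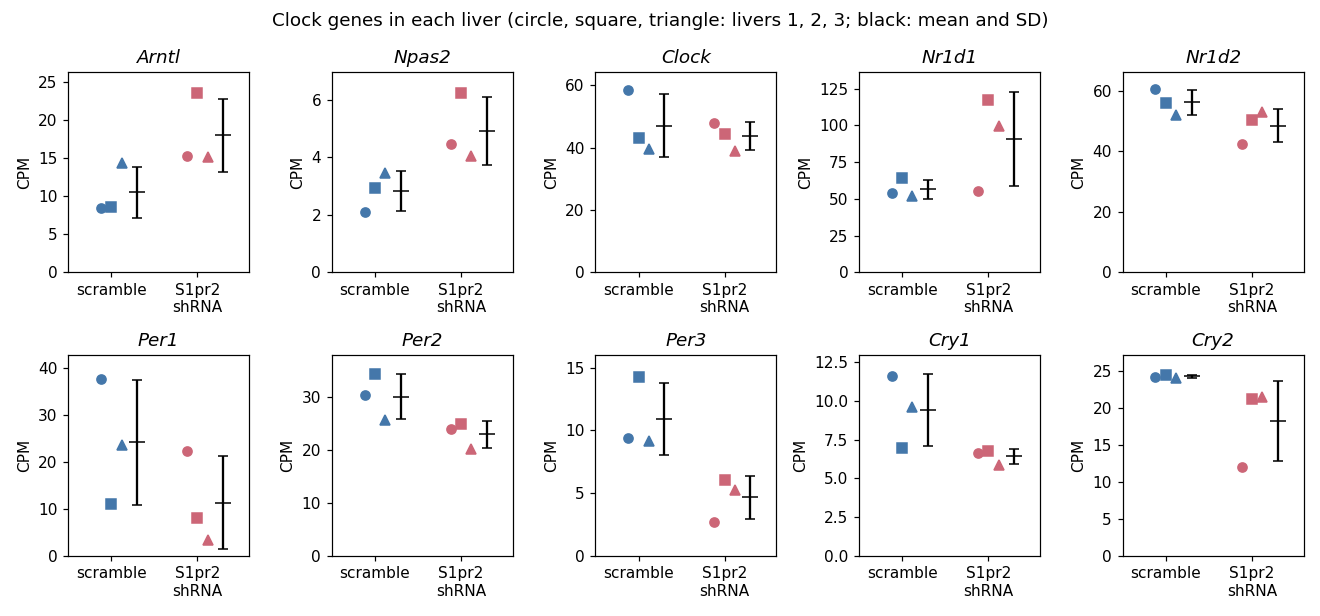
TMM-normalised CPM of the 10 clock genes in each library, with scramble livers in blue, S1pr2 shRNA livers in red, and the mean and SD in black; each vertical axis is linear, starts at 0 and has its own scale. Arntl and Npas2 sit higher and Per3 lower in every S1pr2 shRNA liver, whereas Per1 spreads widely in both groups and Nr1d1 of S1pr2 shRNA liver 1 stays at the scramble level.

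Arntl encodes BMAL1, the partner that every activator complex of this loop needs. It measured 8.46, 8.65 and 14.4 CPM in the scramble livers and 15.3, 23.6 and 15.2 CPM in the S1pr2 shRNA livers. Every S1pr2 shRNA liver was above every scramble liver, although scramble liver 3 came close to the lowest of them. The means were 10.5 ± 3.38 and 18.0 ± 4.83 CPM (SD, n = 3 each). The log2 fold change was 0.77 (SE 0.27, 95% interval 0.15 to 1.40, edgeR adjusted p = 0.130).

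Npas2, whose product can replace CLOCK as the partner of BMAL1, followed the same ordering at a lower level. It measured 2.08, 2.93 and 3.45 CPM in the scramble livers and 4.45, 6.25 and 4.04 CPM in the S1pr2 shRNA livers, which again did not overlap. S1pr2 shRNA liver 2 was the highest library for both Arntl and Npas2. The means were 2.82 ± 0.689 and 4.91 ± 1.17 CPM (SD, n = 3 each), with a log2 fold change of 0.80 (SE 0.26, 95% interval 0.19 to 1.41, edgeR adjusted p = 0.110).

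Clock, the remaining activator gene, known for the flattest daily rhythm, showed no such ordering. It measured 58.5, 43.1 and 39.5 CPM in the scramble livers and 48.1, 44.5 and 39.1 CPM in the S1pr2 shRNA livers. The groups overlapped and scramble liver 1 was the highest library. The log2 fold change was -0.10 (SE 0.16, 95% interval -0.47 to 0.27, edgeR adjusted p = 0.762), and its sign turned to 0.06 and 0.05 on the log2(FPKM + 0.1) and log2(FPKM + 1) scales and to 0.09 without scramble liver 1.

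Within each liver, the ratio of Npas2 to Clock in FPKM (fragments scaled to transcript length and library depth) compares the alternative partners of BMAL1 per transcript length. It was 0.0836, 0.158 and 0.204 in the scramble livers and 0.216, 0.325 and 0.241 in the S1pr2 shRNA livers. The ratio was higher in every S1pr2 shRNA liver, though Clock remained the more abundant of the pair in all 6. The ratio of Arntl to Clock overlapped between the groups, at 0.484, 0.671 and 1.25 against 1.07, 1.77 and 1.30.

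The period genes encode the PER proteins that carry the CRY repressors back to the nucleus. Per3, the member least needed for rhythm itself, had the smallest p of the 10. It measured 9.37, 14.3 and 9.14 CPM in the scramble livers and 2.68, 6.00 and 5.27 CPM in the S1pr2 shRNA livers. The groups were well apart, with S1pr2 shRNA liver 1 the lowest. The means were 10.9 ± 2.89 and 4.65 ± 1.74 CPM (SD, n = 3 each), so that 42.4% of the scramble level was left by the fit. The log2 fold change was -1.24 (SE 0.32, 95% interval -1.98 to -0.50), and the edgeR adjusted p of 0.0592 did not pass.

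Per3 passed under another test and under another design. With the DESeq2 Wald test the log2 fold change was -1.24 (adjusted p = 0.00427), again against 12.0% of all genes. With the replicate number added as a block it was -1.27 (edgeR adjusted p = 0.0297), where 6.61% of all genes passed. Without S1pr2 shRNA liver 1 it was -0.95 (edgeR adjusted p = 0.0644), and over the 18 alternatives the adjusted p ran from 0.00427 to 0.142.

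Per2, a core repressor required for a stable rhythm, showed a smaller difference in the same direction. It measured 30.3, 34.2 and 25.6 CPM in the scramble livers and 23.9, 24.9 and 20.1 CPM in the S1pr2 shRNA livers. The groups did not overlap in CPM, but the gap between the nearest livers was small, and in FPKM they overlapped. Its log2 fold change was -0.39 (SE 0.14, 95% interval -0.71 to -0.07, edgeR adjusted p = 0.132).

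Per1, the period gene that answers fastest to light and hormones, varied most among the livers. It measured 37.7, 11.0 and 23.7 CPM in the scramble livers and 22.4, 7.96 and 3.34 CPM in the S1pr2 shRNA livers. The groups overlapped, and the highest library was 3.45 times the lowest among scramble livers and 6.70 times among S1pr2 shRNA livers. On the log2 scale the fold change was -1.09 (SE 0.79, 95% interval -3.08 to 0.89, edgeR adjusted p = 0.467). Single livers set this value: it was -2.10 without S1pr2 shRNA liver 1, -0.67 without S1pr2 shRNA liver 3 and -0.61 without scramble liver 1.

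The ratio of Per3 to Per2 in FPKM was 0.302, 0.405 and 0.349 in the scramble livers and 0.110, 0.234 and 0.257 in the S1pr2 shRNA livers. It was lower in every S1pr2 shRNA liver, but the difference between these genes was not tested, and the intervals of their log2 fold changes overlapped. The ratio of Per1 to Per2 overlapped, at 1.57, 0.403 and 1.16 against 1.18, 0.403 and 0.208.

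The cryptochromes are the strongest repressors of CLOCK and BMAL1. Cry1, the latest-peaking repressor of the loop, measured 11.6, 6.97 and 9.62 CPM in the scramble livers and 6.63, 6.74 and 5.86 CPM in the S1pr2 shRNA livers. Scramble liver 2 was barely above the S1pr2 shRNA livers, and the groups overlapped in FPKM and with upper-quartile scaling. Fitted over all livers, the log2 fold change was -0.55 (SE 0.20, 95% interval -1.01 to -0.10, edgeR adjusted p = 0.134). Leaving out scramble liver 1 brought it to -0.37.

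Cry2, the earlier-peaking cryptochrome, measured 24.3, 24.5 and 24.0 CPM in the scramble livers and 12.0, 21.2 and 21.5 CPM in the S1pr2 shRNA livers. The scramble livers were nearly identical, and S1pr2 shRNA liver 1 lay far below the other 5 libraries. The log2 fold change was -0.42 (SE 0.21, 95% interval -0.91 to 0.08, edgeR adjusted p = 0.278), and -0.19 without that liver. Cry2 had counts that were not whole numbers in all 6 libraries, unlike the other 9 genes, as happens when RSEM shares reads between features, and its level is uncertain. The ratio of Cry1 to Cry2 in FPKM overlapped, at 0.633, 0.377 and 0.533 in the scramble livers against 0.735, 0.422 and 0.362.

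The REV-ERB genes encode the heme-binding repressors of Arntl. Nr1d1 (REV-ERB alpha) measured 53.7, 64.0 and 52.0 CPM in the scramble livers and 55.3, 117.1 and 99.8 CPM in the S1pr2 shRNA livers. S1pr2 shRNA livers 2 and 3 were far above the scramble range, whereas liver 1 lay inside it. The means were 56.6 ± 6.47 and 90.7 ± 31.9 CPM (SD, n = 3 each), with a log2 fold change of 0.68 (SE 0.26, 95% interval 0.05 to 1.31, edgeR adjusted p = 0.173). Without S1pr2 shRNA liver 1 the log2 fold change was 0.94 and passed (edgeR adjusted p = 0.0170), in a fit where 5.21% of all genes passed. It was 0.45 (adjusted p = 0.399) without S1pr2 shRNA liver 2 and 0.60 (adjusted p = 0.346) without S1pr2 shRNA liver 3.

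Nr1d2 (REV-ERB beta), which overlaps in function with Nr1d1, did not share that pattern. It measured 60.4, 56.0 and 51.9 CPM in the scramble livers and 42.2, 50.2 and 52.8 CPM in the S1pr2 shRNA livers, and the groups overlapped. For Nr1d2 the log2 fold change was -0.21 (SE 0.12, 95% interval -0.48 to 0.06, edgeR adjusted p = 0.310), and -0.12 without S1pr2 shRNA liver 1. The ratio of Nr1d1 to Nr1d2 in FPKM was 1.49, 1.92 and 1.68 in the scramble livers and 2.20, 3.91 and 3.17 in the S1pr2 shRNA livers. It was higher in every S1pr2 shRNA liver, liver 1 included.

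**Figure D2:**
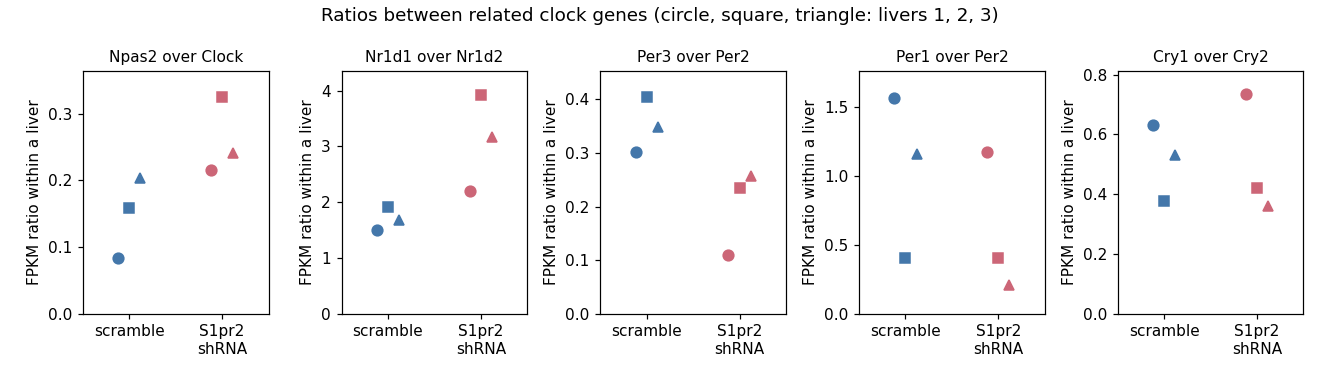
Ratios of FPKM between related clock genes within each library, on linear axes that start at 0, with scramble livers in blue and S1pr2 shRNA livers in red. The groups separate for Npas2 over Clock, Nr1d1 over Nr1d2 and Per3 over Per2, and overlap for Per1 over Per2 and Cry1 over Cry2. For Npas2 over Clock the gap is narrow, 0.204 in scramble liver 3 against 0.216 in S1pr2 shRNA liver 1. The ratios were not tested, and the share of all gene pairs that separate was not counted.

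Which genes had groups that did not overlap depended on the scaling. With TMM and with DESeq2 size factors these were Arntl, Npas2, Per2, Per3, Cry1 and Cry2, and with upper-quartile factors Cry1 dropped out. In FPKM there were 5, Arntl, Npas2 and Nr1d1 higher and Per3 and Cry2 lower, where 33.9% of all genes did not overlap. Arntl, Npas2, Per3 and Cry2 were apart under all 4 scalings, and the share of all genes that were so was not counted. For Cry2 the gap in FPKM was narrow, 5.57 in scramble liver 2 against 5.42 in S1pr2 shRNA liver 3. The FPKM scale raised the median of all genes to a log2 fold change of 0.16 with a pseudocount of 0.1 and 0.10 with a pseudocount of 1.

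Levels between genes were compared in FPKM. Nr1d1 was the most abundant of the 10 genes in the scramble livers at 19.1 ± 1.73 FPKM (SD, n = 3), followed by Nr1d2 at 11.3 ± 0.982. Cry2 (5.67), Per1 (4.89), Per2 (4.80) and Clock (4.54) formed a middle group, with the SD of Per1, at 2.80, wide enough to cover the other means. Arntl (3.42) and Cry1 (2.92) came next, within an SD of each other, and Per3 (1.70) and Npas2 (0.633) were lowest. In the S1pr2 shRNA livers Nr1d1 (33.5 ± 9.58) and Nr1d2 (10.8 ± 0.630) kept their places and Arntl, at 6.38 ± 1.35, ranked next. Clock (4.71), Cry2 (4.65) and Per2 (4.08) followed within an SD of Cry2, then Per1 (2.61), Cry1 (2.21), Npas2 (1.21) and Per3 (0.790), with Per3 now last.

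The loop was also read by the usual time of each RNA's peak in mouse liver, an order taken from textbook knowledge after these values had been seen. Near lights on come Arntl, Npas2 and Clock, then Nr1d1 at midday, Nr1d2 and Per3 in the afternoon, Per1 and Cry2 near lights off, Per2 in the early night and Cry1 late at night. In that order the log2 fold changes were 0.77, 0.80 and -0.10 for the first 3, then 0.68, -0.21, -1.24, -1.09, -0.42, -0.39 and -0.55. The values above 0 all lay among the first 4 genes, and every value from Nr1d2 onward was below 0. Neighbours in that order did not always go together: Clock was near 0 beside Arntl and Npas2, and Nr1d1 and Nr1d2 had opposite signs. The order is cut from a daily cycle, so Cry1 (-0.55), placed last, also neighbours Arntl (0.77), which had the opposite sign. A shift in collection time was not tested, since the hour is not among the labels, and it cannot be told apart from the shRNA group.

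**Figure D3:**
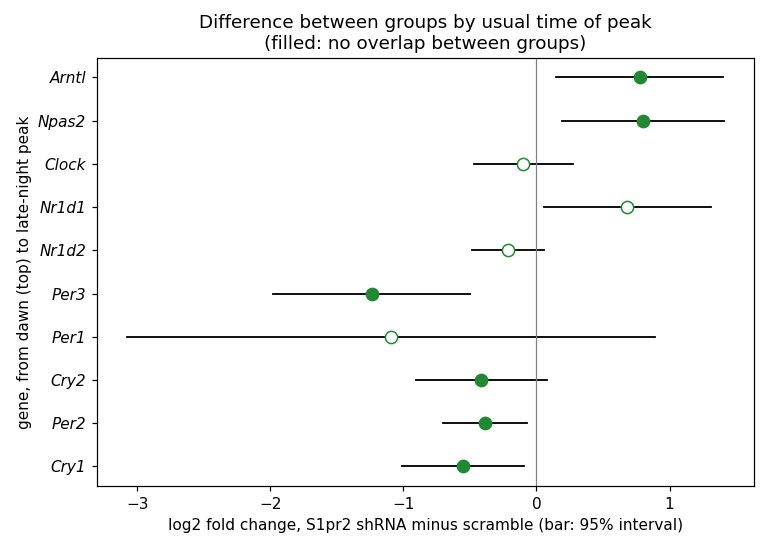
Log2 fold change of each clock gene, S1pr2 shRNA minus scramble, with its 95% interval, ordered from top to bottom by the usual time of its peak; filled points are genes whose groups do not overlap in CPM. Arntl, Npas2 and Nr1d1 lie above 0 and every gene from Nr1d2 downward lies below 0, with the widest interval for Per1.

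**Figure D4:**
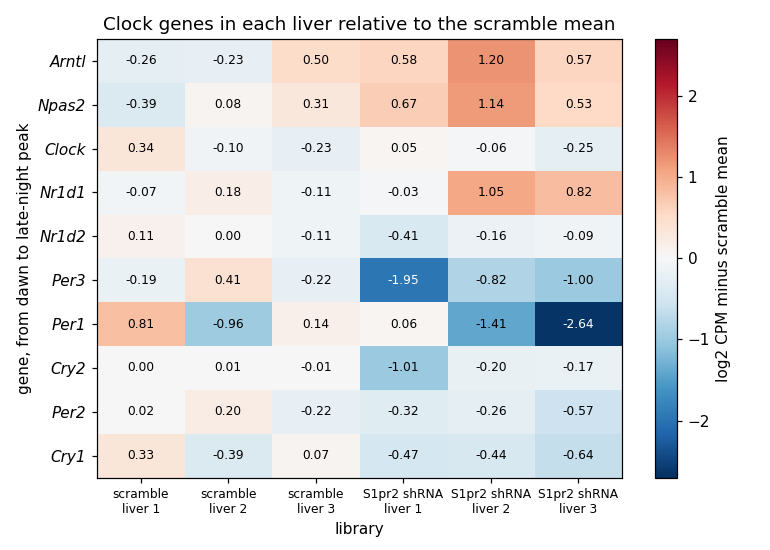
Log2 CPM of each clock gene in each library minus its mean over the scramble livers, in the same order of usual peak, with red above and blue below that mean. S1pr2 shRNA liver 1 has the lowest Per3 (-1.95) and Cry2 (-1.01) and Nr1d1 at -0.03, while S1pr2 shRNA liver 3 has the lowest Per1 (-2.64).

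Each liver was also summarised by the mean log2 CPM of the activators Arntl, Clock and Npas2 minus that of Per1, Per2, Per3, Nr1d1 and Nr1d2, genes driven through E-boxes. Cry1 and Cry2, also driven through E-boxes, were not part of this difference. This difference was -1.65, -1.46 and -1.11 in the scramble livers and -0.44, -0.32 and -0.42 in the S1pr2 shRNA livers. The S1pr2 shRNA livers lay close together and above every scramble liver. Group means were -1.40 ± 0.27 and -0.40 ± 0.07 (SD, n = 3 each), 1.01 apart on the log2 scale, given as a description without a test. The members went different ways inside this mean: relative to the scramble mean, S1pr2 shRNA liver 1 had Per3 at -1.95 and Per1 at 0.06, and S1pr2 shRNA liver 2 had Per3 at -0.82 and Per1 at -1.41. Nr1d1, among the genes subtracted, was at -0.03, 1.05 and 0.82 in S1pr2 shRNA livers 1 to 3. Clock, counted with the activators, was at 0.05, -0.06 and -0.25 in the same livers. The ratio of Arntl to Nr1d1 in FPKM overlapped between the groups (0.150, 0.129 and 0.269 against 0.263, 0.192 and 0.145).

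Of 9 genes for transcription factors downstream of the loop, 4 fell, 0 rose and 5 did not pass, with a median log2 fold change of -1.20. Over all genes, 4.64% were called lower and 3.02% higher. Among those that fell, Tef (-1.06, adjusted p = 0.0293) and Hlf (-1.36, adjusted p = 0.0103) encode D-box activators, and Ciart (-2.64, adjusted p = 0.0225) a repressor of CLOCK and BMAL1. Dbp, the other D-box activator of this family, measured 16.7, 25.0 and 11.6 CPM in the scramble livers and 8.04, 16.1 and 22.0 CPM in the S1pr2 shRNA livers, with overlap (-0.21, adjusted p = 0.817). In all 6 libraries Dbp had counts that were not whole numbers, unlike Tef and Hlf, so its level is uncertain, as for Cry2. Over the 18 alternatives Hlf passed in 17, Ciart in 13 and Tef in 11.

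Among 7 other rhythmic E-box targets, Klf10 fell (-2.002, adjusted p = 0.0280; called in 14 of 18 alternatives), 0 rose and the median was -0.40. That is 1 call in 7 genes, where 4.64% of all genes were called lower. Of 20 clock kinase, phosphatase and ubiquitin ligase genes, Csnk1a1, a casein kinase that phosphorylates PER, fell (-0.49, adjusted p = 0.0304), 0 rose and the median was -0.06. Csnk1a1 passed in 8 of 18 alternatives, with an adjusted p of up to 0.115, and 1 call in 20 genes is near the 4.64% of all genes that were called lower. Of 14 cofactor genes 13 were tested and 0 passed, with Sfpq, a partner in PER repression, at 0.36 (adjusted p = 0.0530) and Wdr5 at 0.40 (adjusted p = 0.0561). Temperature and heat shock genes, which follow body temperature rhythms, had 0 of 9 past the test, with Hspa1a at -0.79 (adjusted p = 0.507) and Hspa1b at -0.59 (adjusted p = 0.597), and these near-identical copies shared reads. In 9 cAMP and immediate early genes 0 passed, with Sik1 at -0.82 (adjusted p = 0.0639) and Crem at 0.28 (adjusted p = 0.163). At an unadjusted p under 0.05 there were 6 of 9 downstream factors, 2 of 7 E-box targets and 7 of 20 kinase-list genes. The cofactor, temperature and cAMP lists had 2 of 13, 0 of 9 and 2 of 9, none above the 24.5% of all genes. Groups did not overlap for 6, 2, 10, 6, 0 and 2 genes of these lists, in that order, against 31.9% of all genes.

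Per1 was set beside other glucocorticoid-induced genes, since both groups received dexamethasone; this view was chosen after the values were seen. Of 11 such genes, Per1 included, Dusp1, a phosphatase gene, fell, 0 rose and the median log2 fold change was -1.19. That is 1 call in 11 genes, where 4.64% of all genes were called lower and 7.66% in either direction. Values were below 0 for 10 of the 11, against 5947 of all 12230 genes. An unadjusted edgeR p under 0.05 was reached by 4 of the 11, against 24.5% of all genes. The groups did not overlap for 4 of the 11, all lower, where 16.8% of all genes were lower without overlap. Dusp1 measured 112.2, 92.4 and 63.2 CPM in the scramble livers and 17.7, 18.8 and 29.9 CPM in the S1pr2 shRNA livers (-2.01, edgeR adjusted p = 0.0118; called in 16 of 18 alternatives). Fkbp5, a chaperone gene of the receptor, measured 711.5, 245.8 and 353.3 CPM against 101.9, 138.8 and 40.6 CPM, and the groups did not overlap (-2.22, adjusted p = 0.0800). Tsc22d3, which encodes GILZ, measured 159.5, 43.6 and 91.6 CPM against 64.2, 35.0 and 25.5 CPM, and the groups overlapped. On the same list Sgk1 was at 0.03 (adjusted p = 0.959) and Klf9 at -0.002 (adjusted p = 0.997).

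Of the 10 genes beside Per1 on that list, 6 ranked the scramble livers in its order (liver 1 highest, liver 2 lowest), and 3 ranked the S1pr2 shRNA livers in its order. In 6 of the 10, S1pr2 shRNA liver 3 was the lowest of its group, as for Per1. The share of all genes with these orders was not counted, so the counts cannot show whether the orders are particular to this list. The part of glucocorticoid exposure in the Per1 values was not tested.

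**Figure D5:**
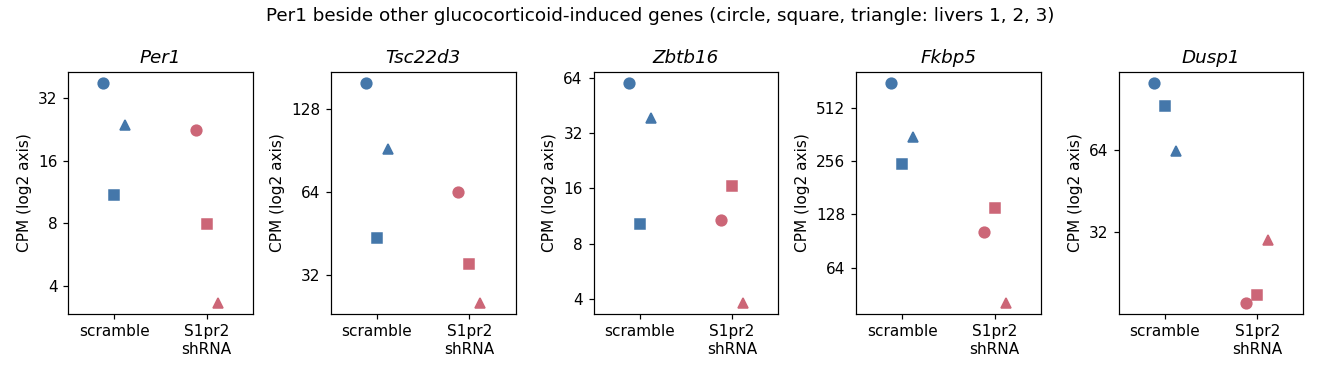
CPM on log2 axes, each with its own scale, of Per1 and 4 other glucocorticoid-induced genes in each library, with scramble livers in blue and S1pr2 shRNA livers in red. Scramble liver 1 is highest in all 5 panels, and S1pr2 shRNA liver 3 is lowest for all but Dusp1. The panels were chosen after the values were seen. Of the listed genes not plotted, Sgk1 was highest in S1pr2 shRNA liver 1 (20.1 CPM) and Klf9 in S1pr2 shRNA liver 2 (107.5 CPM). Cdkn1a, Errfi1, Tat and Pck1 were highest in scramble liver 1.

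The genes whose profiles over the 6 livers were nearest to those of 3 clock genes were found by the root mean square difference of centred log2 CPM among 8786 profiles. Nearest to Arntl were Paxx (0.173), Tlcd2 (0.175) and Rpl36 (0.185). Fzd5 (0.111), Pcsk4 (0.112) and Nuak2 (0.129) were nearest to Nr1d1, and Sepsecs (0.059), Cyp4f17 (0.059) and Cpd (0.071) to Per2. No other core clock gene could enter this comparison by its rule.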

How the data were processed

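Livers were grouped by their shRNA label, 3 scramble and 3 S1pr2 shRNA. The submitters' processing notes name the mm9 build and, without roles, the tools RSEM 1.2.12, HISAT2, DESeq2 and Bowtie2. The authors deposited, per gene and library, an expected count (the estimated count of fragments, not scaled to depth) and an FPKM value scaled to length and depth. No strand setting is named, so overlapping antisense transcripts cannot be separated.

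Genes not listed in a library were taken as 0. Expected counts were rounded, filtered with filterByExpr (minimum count 10), TMM-normalised and tested two-sided with the edgeR 4.0.16 quasi-likelihood F test in R 4.3.3, robust, with group as the only factor. Adjusted p-values are Benjamini-Hochberg over all 12230 genes, with a threshold of 0.05. Log2 CPM used a prior count of 2. The common biological coefficient of variation was 20%. Totals of 16558775 to 17410160 expected counts set the counting precision. The fitting code was tested on simulated data.

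The clock genes and all lists were chosen with earlier results of these data known. Named genes were the 10 clock genes, S1pr2, every gene of the related lists past the test or else the 2 with the smallest p, and the 3 nearest profiles (mean of at least 5 CPM) to Arntl, Nr1d1 and Per2. Dbp, Fkbp5, Tsc22d3, Sgk1 and Klf9, and Zbtb16 in a plot, were added after their values were seen. A gene that meets this rule is not reported here. Alternatives were other scalings and filters, DESeq2 1.42.0, limma-voom and limma 3.58.1 on log2 FPKM, dispersion without the robust option, a replicate block, and each liver left out.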

Additional observations from a re-analysis of the deposited data

How the results depend on the processing

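The count of clock genes past the test was 0 with edgeR and in 15 of 18 alternatives. It was 1 with the DESeq2 Wald test and 1 with the replicate block, Per3 in both, and 1 without S1pr2 shRNA liver 1, Nr1d1. Leaving out each liver gave 0 to 1. Of 180 values of the clock genes under alternatives, 172 kept their direction and their side of the threshold, 3 came to pass it and 5 changed sign. All 5 were Clock, at 0.0641 and 0.0524 with limma on log2(FPKM + 0.1) and log2(FPKM + 1), with or without a trend, and 0.0878 without scramble liver 1, and leaving out each liver put it between -0.2133 and 0.0878. The count over all genes was 937, 1466 with the DESeq2 Wald test and 808 with the replicate block. Leaving out a liver gave 231 (without S1pr2 shRNA liver 2) to 643 (without S1pr2 shRNA liver 1), with 533, 456 and 400 without scramble livers 1 to 3 and 414 without S1pr2 shRNA liver 3. With limma on log2(FPKM + 0.1) it was 323. A fit with a trend in the variance, which gave 824, was added after that 323 had been seen. On log2(FPKM + 1) the counts were 861 without and 794 with the trend. The calls lower in the S1pr2 shRNA livers were 60.6% with edgeR, and 33.4% and 30.0% with limma on log2(FPKM + 0.1) and log2(FPKM + 1). The activator minus E-box gene difference was 0.60 on log2(FPKM + 1) against 1.01, and 0.89 to 1.15 with a liver left out. The cause of these changes was not tested. Deviations of same-numbered livers correlated at -0.062, 0.222 and -0.116, and those of differently numbered livers at -0.301 to 0.301. With 3 livers a group these values cannot show whether the numbers pair the livers. The labels do not say so, and the replicate block is given as an alternative design only. Npas2, at 34 to 102 expected counts, and Per3, at 53 to 229, had the fewest counts of the 10 genes.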
